A study of Mus musculus with 8 samples.

Results

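The immediate early response genes described here are 10 mouse genes, Fos, Fosb, Jun, Junb, Egr1, Nr4a1, Atf3, Ier2, Ier3 and Dusp1, followed across 8 RNA-seq libraries of mouse testis. They were taken by gene symbol from the 55421 Ensembl genes of each library, and all 10 were found and passed the filter on low counts. The 4 groups hold 2 libraries each, from male mice labelled WT, whose strain and age the labels do not state. CTRL received phosphate-buffered saline. LPS received 1 intraperitoneal dose of lipopolysaccharide, a component of the bacterial cell wall that triggers inflammation through Toll-like receptor 4. LPS+DHEA received LPS and, 6 h later, dehydroepiandrosterone (DHEA), a steroid precursor of androgens. LPS+DHEA+Nb received LPS and, 6 h later, DHEA with Nb23-bi, an agent the labels name without describing. The labels state neither the doses, nor the time from injection to tissue collection, nor whether the 2 libraries of a group came from separate animals, so each p-value measures the spread between libraries, which may be technical. The labels mention no later injection for the LPS group, so DHEA and the injection itself cannot be told apart.

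Immediate early genes are transcribed within minutes of a stimulus, from factors already present in the cell, and their short-lived transcripts then fade. Fos, Fosb, Jun and Junb encode subunits of the AP-1 transcription factor, Egr1 a zinc finger factor, Nr4a1 an orphan nuclear receptor and Atf3 a stress-induced factor of the ATF family. Ier2 and Ier3 encode early response proteins, and Dusp1 a phosphatase that switches off MAP kinases and so damps the same signal. Growth factors, cyclic AMP, cell stress and Toll-like receptor ligands are known inducers. The response is brief, so the time of sampling bears on what can be seen.

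On GRCm38 (GENCODE M21), the genes and strands are Fos at chr12:85473890-85477273 (plus), Fosb at chr7:19302696-19310051 (minus), Jun at chr4:95049034-95052222 (minus) and Junb at chr8:84974484-84978718 (minus). Further members are Nr4a1 at chr15:101254269-101274795 (plus), Atf3 at chr1:191170296-191218039 (minus), Ier2 at chr8:84661331-84662852 (minus), Ier3 at chr17:35821684-35822923 (plus) and Dusp1 at chr17:26505590-26562128 (minus). Counts are summed over whole genes. 3 members share exon bases with a gene on the opposite strand: Junb 173 with Prdx2, Jun 232 with Junos and Dusp1 11 with Ergic1. Since a strand setting for the counting is not stated, reads over those bases cannot be assigned with certainty.

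Promoter sequences are shown for 4 members that cover the patterns found: Junb and Ier3, which were higher in both LPS libraries than in both CTRL libraries, Fosb, which was lowest in both LPS+DHEA+Nb libraries, and Dusp1, which varied least between libraries. Each runs 5′ to 3′ on the gene's own strand over the 250 bases before the RefSeq transcription start (GRCm38.p6). They lie at chr8:84978749-84978998 on the minus strand (Junb), chr17:35821463-35821712 on the plus strand (Ier3), chr7:19310046-19310295 on the minus strand (Fosb) and chr17:26508473-26508722 on the minus strand (Dusp1). These RefSeq starts differ from the GENCODE M21 starts given above. For Junb the RefSeq start lies upstream of the GENCODE start (84978718), and for Dusp1 the stretch lies inside the GENCODE gene (26505590 to 26562128). Motif positions count from the RefSeq start alone. Capitals mark matches to the motifs named after the sequences.
Junb: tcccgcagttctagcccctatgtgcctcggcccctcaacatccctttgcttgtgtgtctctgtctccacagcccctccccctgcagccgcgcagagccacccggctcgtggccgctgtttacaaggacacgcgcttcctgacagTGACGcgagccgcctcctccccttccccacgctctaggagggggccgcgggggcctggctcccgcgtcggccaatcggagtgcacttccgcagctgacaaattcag
Ier3: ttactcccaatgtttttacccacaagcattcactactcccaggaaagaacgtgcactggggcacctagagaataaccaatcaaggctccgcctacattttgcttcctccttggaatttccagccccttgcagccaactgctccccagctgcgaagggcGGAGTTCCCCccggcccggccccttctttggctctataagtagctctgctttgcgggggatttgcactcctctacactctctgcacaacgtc
Fosb: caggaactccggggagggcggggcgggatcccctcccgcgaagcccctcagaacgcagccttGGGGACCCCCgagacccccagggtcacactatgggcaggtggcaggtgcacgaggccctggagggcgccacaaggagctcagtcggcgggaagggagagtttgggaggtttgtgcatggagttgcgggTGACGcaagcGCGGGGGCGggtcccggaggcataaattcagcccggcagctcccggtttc
Dusp1: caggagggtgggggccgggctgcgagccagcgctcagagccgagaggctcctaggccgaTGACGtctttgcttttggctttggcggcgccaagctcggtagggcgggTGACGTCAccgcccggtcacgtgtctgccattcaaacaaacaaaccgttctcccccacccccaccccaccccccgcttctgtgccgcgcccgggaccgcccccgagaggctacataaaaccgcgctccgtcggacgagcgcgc

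In windows of 300 bases, from 250 before to 50 after the RefSeq start, 7 motifs were searched on both strands. RefSeq windows were at hand for 8 of the 10 members, all but Egr1 and Ier2. The half-site of the cyclic AMP response element, TGACG, was found in 6 of 8 members and in 20.8% of all 32851 promoter windows. The full element TGACGTCA, which contains 2 overlapping half-sites, was found in 1 of 8, Dusp1, and in 1.79% of all windows. The NF-kB site was found in 4 of 8 members and 4.51% of all windows, the EGR site GCGNGGGCG in 2 of 8 and 5.55%, and the TATA box TATAAA in 2 of 8 and 13.6%. The AP-1 site TGANTCA (7.81% of all windows) and the CArG box bound by serum response factor (1.63%) had no match in these 8 windows, which says only that the letters are not there. Junb held 1 half-site, at -106 to -102 from the start, and a TATA box match at 0 to 5, just past the stretch printed. Ier3 held 1 NF-kB match, at -92 to -83. Fosb held an NF-kB match, a half-site and an EGR match. Dusp1 held the full element at -143 to -136 and another half-site at -191 to -187. A match describes letters and is not evidence that a factor binds.

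**Figure D1:**
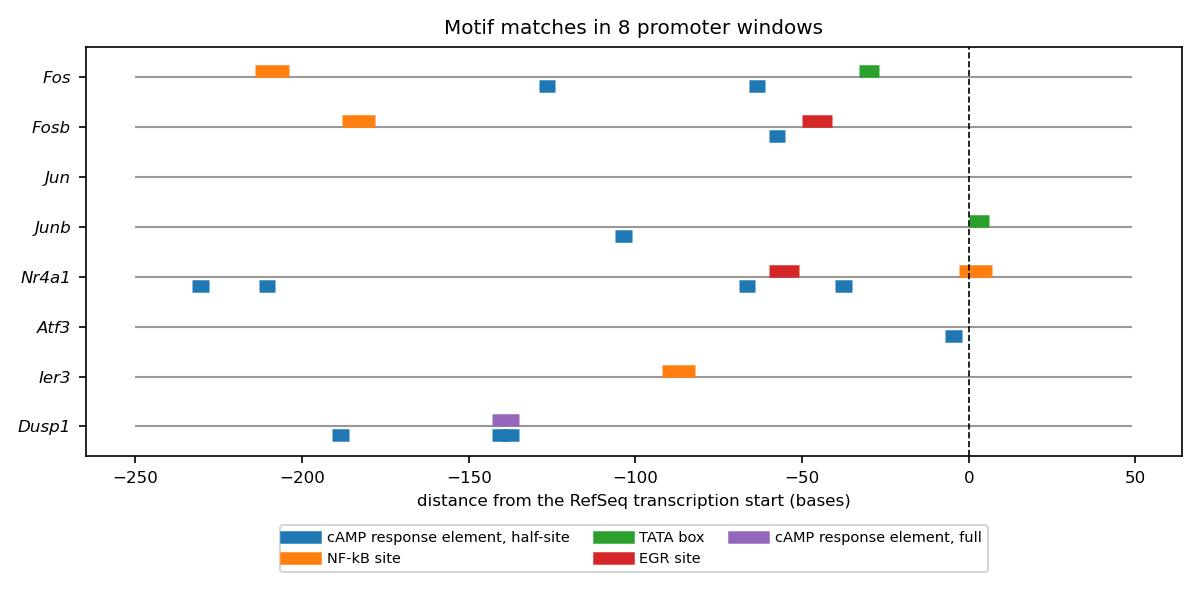
Motif matches on either strand in the promoter windows of 8 members, by distance in bases from the RefSeq transcription start (dashed line). Nr4a1 carries 4 half-sites of the cyclic AMP response element, Dusp1 the full element, and Jun no match to any of the 7 motifs.

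Each library held 61291062 to 64521795 counts, with TMM scaling factors of 0.985 to 1.015. The deposited values are whole numbers and are treated here as estimated counts. Multiples of 4 made up 33.5% of low values (1 to 40) but 25% of high ones (1000 to 10000), and the reason was not tested. A count may thus stand for less than 1 sequenced fragment, and the precision of the low members (Fos, Atf3, Ier3) is lower than their counts look. Spermatid transcripts such as those of the protamine genes summed to 26286 to 29751 CPM over 16 markers, and no Leydig, Sertoli, spermatid, endothelial, smooth muscle, stroma or macrophage marker was at 0 in any library, which matches the label testis (the extraction protocol speaks of islets). Levels below are CPM (counts scaled by the TMM-corrected library size), and levels set against each other between genes are RPKM (CPM per kilobase of exon in GENCODE M21).

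By RPKM, Nr4a1 was the most abundant member, at 19.2 ± 1.42 (SD over 8 libraries), and was above Dusp1 in 8 of 8 libraries. Dusp1 (4.67 ± 0.237 RPKM), Junb (4.03 ± 2.41) and Jun (3.87 ± 0.382) came next and were not cleanly ordered, Junb lying above Jun in only 2 of 8 libraries although its mean was higher. Ier2 (2.88 ± 0.771 RPKM) lay above Egr1 (1.88 ± 0.879) in 8 of 8 libraries. Egr1 lay above Ier3 (1.06 ± 0.465 RPKM) in 7 of 8, and Ier3 above Fosb (0.519 ± 0.125 RPKM) in 6 of 8. Fos, the best known member, was among the lowest at 0.25 ± 0.201 RPKM, and Atf3 was last at 0.126 ± 0.145 RPKM; these 2 did not separate, with Fos higher in 5 of 8 libraries. Fosb lay above Fos in 7 of 8 libraries.

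**Figure D2:**
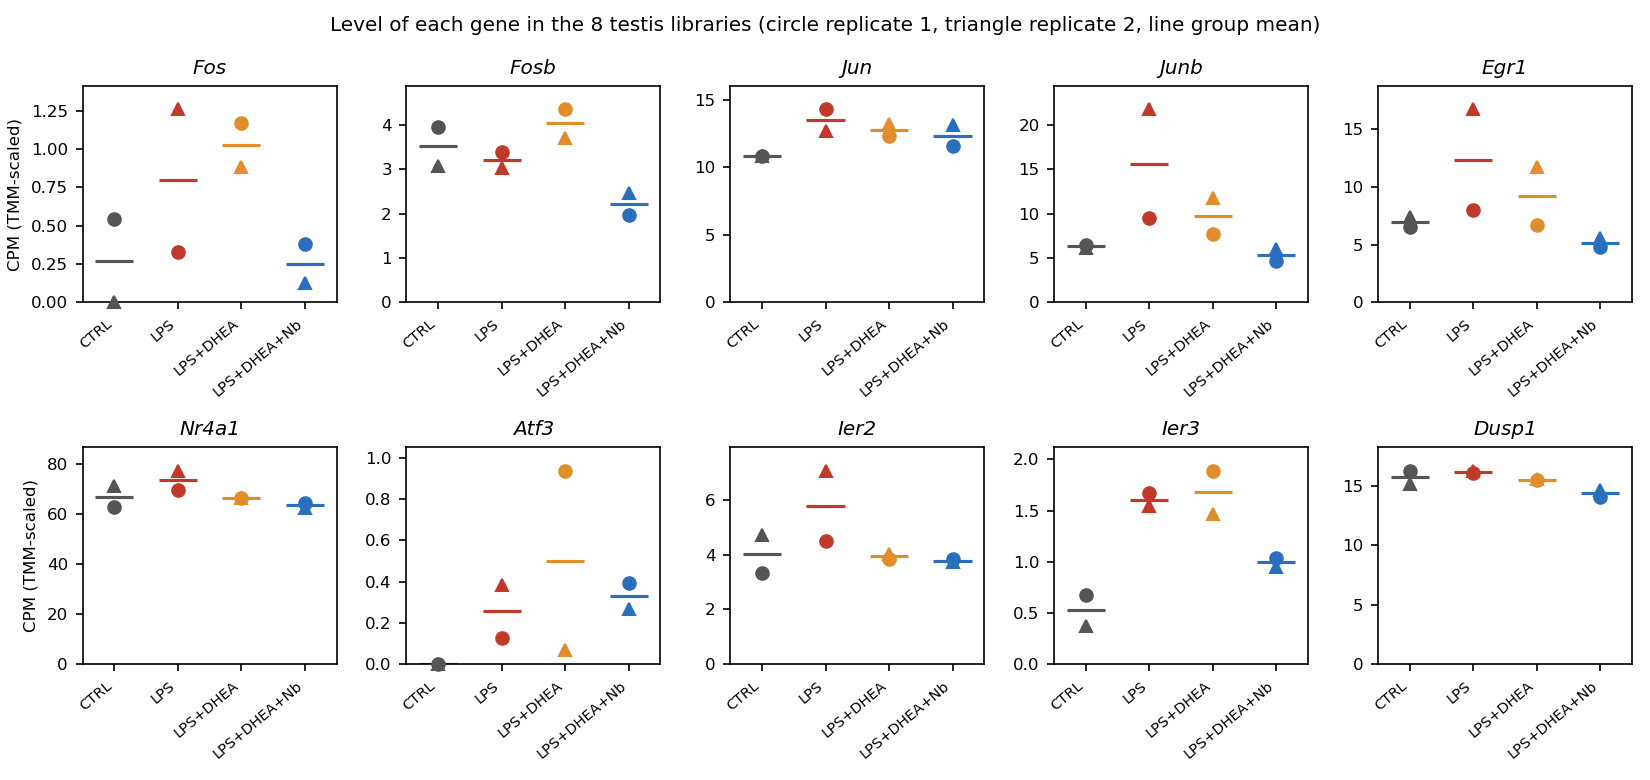
Level of each of the 10 genes in CPM (y axis from 0, its range differs by panel) in the 4 groups; circles are replicate 1, triangles replicate 2 and lines the group mean (n = 2). LPS replicate 2 is the highest library for Junb at 21.8 CPM and for Egr1 at 16.7 CPM, while Jun, Nr4a1 and Dusp1 stay within a narrow range.

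Setting LPS beside CTRL addresses which members respond to the endotoxin. Junb, Egr1, Jun, Ier3 and Atf3 were each higher in both LPS libraries than in both CTRL libraries, but none of the 10 passed edgeR's quasi-likelihood test at an adjusted p under 0.05 (Benjamini-Hochberg over 26414 genes), where 0.295% of all genes did. At an unadjusted p under 0.05 in edgeR, 4 of 10 were higher (Jun, Junb, Atf3, Ier3) and none lower, against 7.11% of all genes in either direction. The count of members at that p was 4 with DESeq2 and 2 with limma-voom. 5 of 10 members lay wholly above CTRL, beside 18.9% of all genes, and none lay wholly below, beside 18.1%. The edgeR count of 4 and the count of 5 both include Atf3, which had 0 counts in both CTRL libraries. Atf3 passed the filter on low counts only through libraries that received LPS, so it could not come out lower than CTRL. The median log2 fold change of the 10 was 0.67, and that of all genes 0. The members were chosen with earlier results of these data known. Member counts and medians beside those of all genes, here and in the comparisons below, are therefore descriptions. DESeq2 called 1 member, Junb, among 293 genes in all, and limma-voom none, among 71 in all.

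Ier3, which encodes a small stress protein that acts on survival and NF-kB signalling, had the smallest p of the 10. It stood at 0.671 and 0.375 CPM in the CTRL libraries and at 1.67 and 1.54 CPM in the LPS libraries. The 2 groups did not overlap, and the LPS libraries lay close together. Its log2 fold change was 1.61 (SE 0.38, edgeR adjusted p = 0.188), from 24 to 42 counts in CTRL and 96 to 106 in LPS.

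Junb, an AP-1 subunit that often restrains Jun, stood at 6.5 and 6.17 CPM in CTRL and at 9.48 and 21.8 CPM in LPS. Both LPS libraries were above both CTRL libraries, but the LPS libraries differed from each other by 1.2 on the log2 scale, nearly as much as the groups did (log2 fold change 1.3, SE 0.41, edgeR adjusted p = 0.545). The value rested on which LPS library was kept: the log2 fold change of Junb was 0.58 without LPS replicate 2 and 1.78 without LPS replicate 1. In the second case edgeR gave an adjusted p of 0.0111, but LPS is then the single highest library, assumed to vary like the other groups. With DESeq2 and all libraries the adjusted p was 0.00512. Junb shares 173 exon bases with Prdx2, a peroxidase gene on the opposite strand, and whether the counting used strand is not stated. Prdx2 stood at 32.5 and 33.4 CPM in CTRL, 40.2 and 38.7 CPM in LPS, and 31.9 and 32.4 CPM in LPS+DHEA+Nb. Its log2 fold change had the sign of that of Junb in LPS versus CTRL (0.26, SE 0.09) and in LPS+DHEA+Nb versus LPS (-0.29, SE 0.09). Within the LPS pair the order of Prdx2 was the reverse of that of Junb. The part of Prdx2 reads in the Junb counts was not tested.

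Egr1, a factor that many growth and stress signals induce, had the same shape, at 6.55 and 7.42 CPM in CTRL and 7.97 and 16.7 CPM in LPS. LPS replicate 1 lay only just above CTRL and LPS replicate 2 far above it, and the log2 fold change was 0.82 (SE 0.39, edgeR adjusted p = 0.75). It was 0.19 without LPS replicate 2 and 1.26 without LPS replicate 1. Ier2 stood at 3.32 and 4.72 CPM in CTRL and at 4.5 and 7.07 CPM in LPS. Here the groups overlapped, since LPS replicate 1 lay between the CTRL libraries (log2 fold change 0.52, SE 0.26, edgeR adjusted p = 0.736). Fos was counted 34 times in CTRL replicate 1 and 0 times in CTRL replicate 2, against 21 and 79 times in the LPS pair, or 0.543 and 0 CPM against 0.331 and 1.26 CPM. The groups overlapped, and the fitted log2 fold change of 1.55 had an SE of 1.39. A count of 0 in CTRL replicate 2 allows up to 3 counts, or 0.0469 CPM, for counting error alone.

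Atf3 was at 0 counts in each CTRL library, while LPS replicate 1 had 8 and LPS replicate 2 had 24. Against a floor of 3 counts per CTRL library, this is at least 5.38-fold higher, but with counts divided by 4 and the same floor the bound is only 1.34-fold. edgeR gave Atf3 an adjusted p of 0.389. Since Atf3 passed the filter only through libraries that received LPS, no comparison with CTRL could have found it lower. Atf3 was also seen in every library of the later-treated groups, at 60 and 4 counts under LPS+DHEA and at 25 and 17 counts under LPS+DHEA+Nb, so CTRL was the only group in which it was not detected. DESeq2 called Atf3 in LPS+DHEA versus CTRL (adjusted p = 0.017), where edgeR gave 0.376. The 2 LPS+DHEA libraries differed by 3.32 on the log2 scale, more than in any other group for this gene.

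Jun, Nr4a1, Fosb and Dusp1 moved little. Jun stood at 10.8 and 10.8 CPM in CTRL and 14.3 and 12.7 CPM in LPS, with no overlap and a log2 fold change of 0.32 (SE 0.13, edgeR adjusted p = 0.647). Nr4a1 stood at 62.5 and 71.1 CPM in CTRL and 69.5 and 77.2 CPM in LPS, and the groups overlapped (log2 fold change 0.13, SE 0.09). Fosb was at 3.95 and 3.08 CPM in CTRL and 3.39 and 3.02 CPM in LPS, the only member with a negative log2 fold change (-0.13, SE 0.24), and without CTRL replicate 1 it was 0.06. Dusp1 was at 16.3 and 15.2 CPM in CTRL and 16.1 and 16.3 CPM in LPS (log2 fold change 0.04, SE 0.11).

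**Figure D3:**
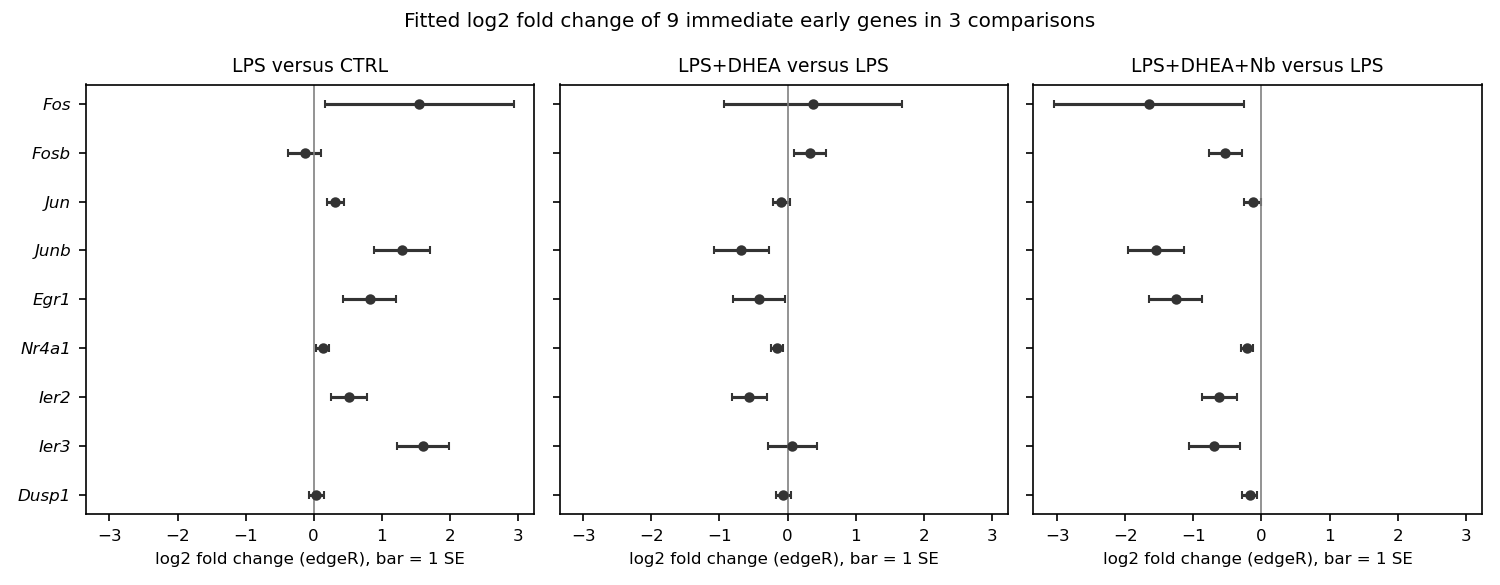
Fitted log2 fold change (x axis, edgeR) of 9 members in LPS versus CTRL, LPS+DHEA versus LPS and LPS+DHEA+Nb versus LPS, with bars of 1 SE. Atf3 is left out because both CTRL libraries are at 0 counts. Its log2 fold changes in the middle and right-hand comparisons, which do not use CTRL, were 0.98 (SE 1.16) and 0.37 (SE 1.16). In the right-hand panel all 9 points lie below 0, led by Fos (-1.65), Junb (-1.55) and Egr1 (-1.26); the left and right panels share the LPS libraries.

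Setting LPS+DHEA beside LPS addresses what the later DHEA dose changes. None of the 10 members passed edgeR's test, where 0.0189% of all genes did, none had an unadjusted p under 0.05, and DESeq2 and limma-voom called none. Junb stood at 7.73 and 11.8 CPM in LPS+DHEA, 1 library below both LPS libraries and 1 between them (log2 fold change -0.68, SE 0.4, edgeR adjusted p = 1). Without LPS replicate 2 its log2 fold change was 0.03, so the lower level of Junb rests on that library. Egr1, at 6.73 and 11.7 CPM (log2 fold change -0.42, SE 0.38), turned to 0.21 without it. Ier3 stayed at the LPS level, at 1.89 and 1.47 CPM (log2 fold change 0.07, SE 0.36). Fos was at 1.17 and 0.883 CPM, between the LPS libraries. Ier2 was at 3.85 and 4.02 CPM, below both LPS libraries (log2 fold change -0.56, SE 0.26, edgeR adjusted p = 1). In all, 3 members lay wholly below LPS (Ier2, Nr4a1, Dusp1), beside 15.7% of all genes, and 1 wholly above (Fosb, at 4.35 and 3.71 CPM), beside 16.1%.

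The comparison of LPS+DHEA+Nb with LPS asks what the combined treatment changes. 9 of 10 members had a negative log2 fold change and 7 lay wholly below LPS, beside 18.6% of all genes, with none wholly above, beside 18.1%, but none passed edgeR's test, where 0.17% of all genes did. At an unadjusted p under 0.05 in edgeR, 5 were lower (Fosb, Junb, Egr1, Nr4a1, Ier2), against 6.56% of all genes in either direction. The count of members at that p varied with the tool, at 4 with DESeq2 and 3 with limma-voom. The median log2 fold change of the 10 was -0.58, and that of all genes 0. DESeq2 called 2 members, Junb and Egr1, both lower, among 207 genes in all, where edgeR called 45. limma-voom called no member, among 47 genes in all. Both this comparison and LPS versus CTRL use the LPS libraries, so the values that follow and those above are not independent.

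Junb was at 4.67 and 6.04 CPM in LPS+DHEA+Nb, below both LPS libraries and below both CTRL libraries (log2 fold change against LPS -1.55, SE 0.41, edgeR adjusted p = 0.481). It was -0.82 without LPS replicate 2 and -2.02 without LPS replicate 1, the latter at an edgeR adjusted p of 0.00785 with LPS again 1 library of assumed spread. With DESeq2 and all libraries the adjusted p was 0.000329. Egr1 was at 4.77 and 5.57 CPM, also below every LPS and CTRL library (log2 fold change -1.26, SE 0.39, edgeR adjusted p = 0.603). Its log2 fold change was -0.62 without LPS replicate 2 and -1.69 without LPS replicate 1. DESeq2 gave Egr1 an adjusted p of 0.0136 with all libraries. Against CTRL, the log2 fold changes were -0.24 for Junb (SE 0.41) and -0.44 for Egr1 (SE 0.39), each within about 1 SE of 0. Ier2 was at 3.82 and 3.71 CPM, below LPS and inside the range of CTRL (log2 fold change against LPS -0.62, SE 0.26, edgeR adjusted p = 0.722). Ier3 was at 1.04 and 0.946 CPM, between the groups: below both LPS libraries (log2 fold change -0.69, SE 0.37) and above both CTRL libraries (0.92, SE 0.38). Dusp1 was at 14.1 and 14.7 CPM, below all 6 other libraries by a small margin (log2 fold change against LPS -0.17, SE 0.11). Nr4a1, at 64.4 and 62.4 CPM, differed from LPS by -0.21 (SE 0.09, edgeR adjusted p = 0.743).

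Fosb was the only member whose mean was lower in LPS (3.2 CPM) than in CTRL (3.51 CPM), and its mean was highest in LPS+DHEA (4.03 CPM), although the CTRL and LPS libraries overlapped. Like Junb, Egr1 and Dusp1, it was lower in both LPS+DHEA+Nb libraries, at 1.97 and 2.46 CPM, than in all 6 others, which ran from 3.02 to 4.35 CPM. Its log2 fold change was -0.86 against LPS+DHEA (SE 0.24, edgeR adjusted p = 0.667), -0.53 against LPS (SE 0.24, edgeR adjusted p = 0.762) and -0.67 against CTRL (SE 0.24, edgeR adjusted p = 1). These 3 comparisons share the LPS+DHEA+Nb libraries.

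The comparison of LPS+DHEA+Nb with LPS+DHEA asks what Nb23-bi adds to DHEA. 10 of 10 members had a negative log2 fold change (median -0.68, all genes 0), and 8 lay wholly below LPS+DHEA, beside 17.1% of all genes, with none wholly above, beside 15.7%. None passed edgeR's test, where 0.0871% of all genes did. At an unadjusted p under 0.05 there was 1, Fosb, beside 4.4% of all genes, and neither DESeq2 nor limma-voom called a member. Junb (-0.86, SE 0.41), Egr1 (-0.84, SE 0.39) and Ier3 (-0.76, SE 0.37) had similar log2 fold changes, while Jun (-0.04, SE 0.13), Ier2 (-0.06, SE 0.26) and Nr4a1 (-0.06, SE 0.09) were near 0. The SE of Fos (1.4) was too wide for its value of -2.02 to be told from 0.

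Against CTRL, no member passed edgeR's test in LPS+DHEA (0.151% of all genes did) or LPS+DHEA+Nb (0.0303% did). At an unadjusted p under 0.05 there were 2 members in the first, beside 5.72% of all genes, and 3 in the second, beside 4.28%. DESeq2 called 1 in the first, Atf3, among 183 genes in all, and none in the second, among 76. limma-voom called no member in either. In LPS+DHEA 5 members lay wholly above CTRL, beside 18.6% of all genes, and none below, beside 16.6%. In LPS+DHEA+Nb 3 lay wholly above CTRL, beside 16.4%, and 4 below, beside 16.5%. Atf3 is among the higher members in both comparisons. It passed the filter only through libraries that received LPS, so it could not come out lower than CTRL. Ier3 had the largest change in LPS+DHEA versus CTRL other than those of the sparsely counted Fos and Atf3 (log2 fold change 1.68, SE 0.38, edgeR adjusted p = 0.241). A test for any difference among the 4 groups also passed none of the 10, where 0.239% of all genes passed; 4 had an unadjusted p under 0.05 (Fosb, Junb, Atf3, Ier3), beside 5.4% of all genes. DESeq2 called Junb and Egr1 in that test, among 371 genes in all, and limma-voom no member.

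Libraries of the same group differed more for some members than the groups did. LPS replicate 2 was the highest of the 8 libraries for 6 of 10 members (Fos, Junb, Egr1, Nr4a1, Ier2, Dusp1), while it was the highest for 13.2% of all genes tested. The 2 LPS+DHEA+Nb libraries were the lowest for 4 members (replicate 1, beside 11.9% of all genes) and 1 member (replicate 2, beside 11.6%). CTRL replicate 1 was the lowest for 2 members (beside 12.1%) and CTRL replicate 2 for 2 (beside 12.7%), while Atf3 was at 0 in both. The mean difference between the 2 libraries of a group was 0.57 on the log2 scale for Egr1 and 0.56 for Junb. Among the genes within 0.5 log2 CPM of each (2571 for Egr1, 2569 for Junb) the median was 0.21, and both lay at percentile 96.4. Fos, at 1.95, lay at percentile 98.1 of genes of its level. Its difference was 4.18 in CTRL, where replicate 2 had 0 counts, and 1.84, 0.4 and 1.37 in LPS, LPS+DHEA and LPS+DHEA+Nb. Dusp1 was at the other end, with a difference of 0.04 and percentile 1.06. Jun (0.11), Nr4a1 (0.1), Ier3 (0.35), Fosb (0.27), Ier2 (0.31) and Atf3 (1.31) lay between percentiles 17.8 and 67.2 of genes of their level. The mean of Atf3 includes a difference of 0 in CTRL, where both libraries had 0 counts. Over the 10 members the median difference was 0.33, beside 0.27 for all genes. By group, it was 0.41 in LPS, 0.29 in LPS+DHEA, 0.18 in CTRL and 0.19 in LPS+DHEA+Nb, where all genes had 0.22 in each. 5 members differed by more than 0.5 between the LPS libraries, beside 26.7% of all genes.

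**Figure D4:**
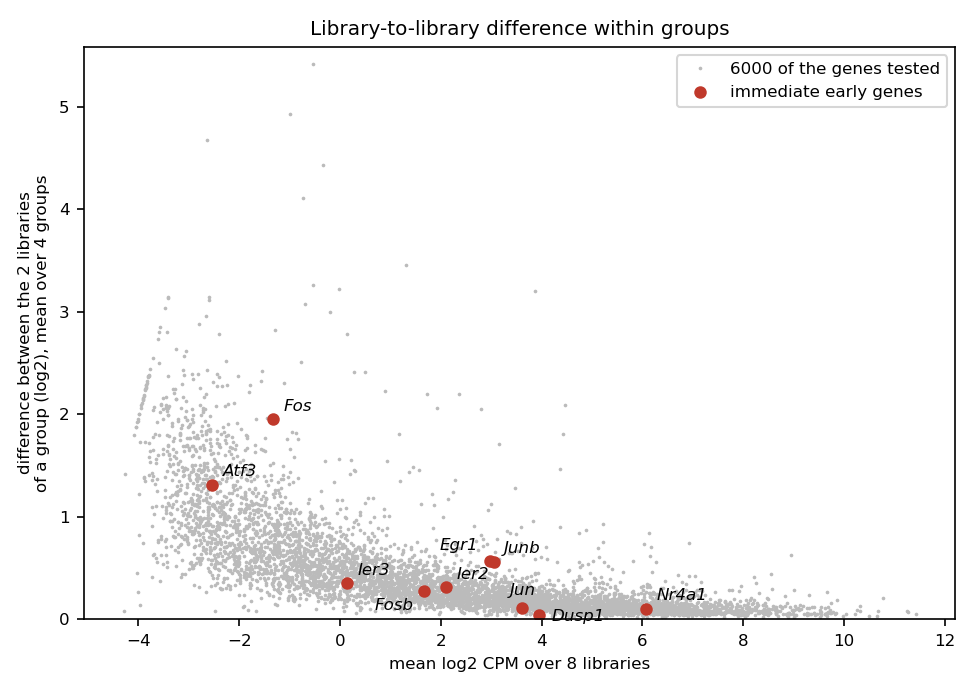
Difference between the 2 libraries of a group on the log2 scale, averaged over the 4 groups (y axis), against mean log2 CPM (x axis); grey points are 6000 of the genes tested and red points the 10 members. Junb and Egr1 sit above most genes of their level at 0.56 and 0.57, Dusp1 near the bottom at 0.04.

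Markers of some other cells differed between these libraries, not all in the direction of the members, and their part in the results was not tested. In bulk tissue, fewer cells of a type and less RNA per cell cannot be told apart. The 12 fibroblast and stroma markers summed to 804.9 CPM in LPS replicate 2 and 599.5 in LPS replicate 1, to 514.5 and 544.3 in CTRL, to 619.1 and 645.1 under LPS+DHEA, and to 605.9 and 535.9 under LPS+DHEA+Nb. LPS replicate 2 was thus also the highest library for stroma, and 12 of 12 of these markers had a positive log2 fold change in LPS versus CTRL. Of these, 1 passed edgeR's test, where 0.295% of all genes did. The 16 endothelial markers summed to 77.5 and 79.8 CPM in CTRL against 96.3 and 105.7 CPM for the LPS pair, with the later-treated libraries at 87.5 to 95 CPM. The 13 neutrophil markers summed to 3.97 to 4.57 CPM in CTRL and 8.17 to 10.9 in LPS, with 8 or 9 of them at 0 in CTRL and 4 in each LPS library. Their sums were 9.17 and 7.03 CPM under LPS+DHEA and 4.39 and 5.58 CPM under LPS+DHEA+Nb. The 14 smooth muscle and peritubular markers summed to 503 and 516.3 CPM in CTRL and 592.9 and 616.6 in the LPS pair. Under LPS+DHEA they summed to 578.7 and 604.2 CPM, and under LPS+DHEA+Nb to 495.8 and 524.2 CPM. Of the 14, edgeR called 1 higher in LPS versus CTRL, beside 0.295% of all genes, and 1 higher in LPS+DHEA versus CTRL, beside 0.151%. It called 1 lower in LPS+DHEA+Nb versus LPS, beside 0.17% of all genes, and 1 lower in LPS+DHEA+Nb versus LPS+DHEA, beside 0.0871%. The 16 Sertoli markers summed to 1418.4 and 1440.7 CPM in CTRL and 1696.4 and 1736.5 in the LPS pair. With DHEA after LPS they stood at 1641.7 and 1725.5 CPM, and with Nb23-bi added at 1560.1 and 1421.2 CPM. The 12 Leydig markers went the other way, at 1038.9 and 1216.6 CPM in CTRL against 881.7 and 907.8 in the LPS pair, with LPS+DHEA lowest at 803.4 and 827.5 CPM and LPS+DHEA+Nb at 997.9 and 1120.6 CPM. The 16 spermatid and sperm markers summed to 29050 and 29751 CPM in CTRL and 26635 and 26989 in the LPS pair. Their sums were 26286 and 28066 CPM under LPS+DHEA and 27918 and 28038 under LPS+DHEA+Nb. In LPS versus CTRL edgeR called none of the 16. At an unadjusted p under 0.05 in edgeR, 5 were lower and none higher, beside 7.11% of all genes in either direction. The 16 macrophage markers summed to 109.6 to 123.4 CPM in CTRL, 123.1 to 125.9 in LPS, 118.9 to 136.9 under LPS+DHEA and 124.3 to 131.4 under LPS+DHEA+Nb. Single macrophage markers moved within that sum: in LPS+DHEA+Nb versus LPS edgeR called 1 lower, DESeq2 called 1 higher and 3 lower, and limma-voom called none.

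Of 63 other immediate early and early response genes, 61 were tested and edgeR called none in any of the 6 comparisons. In LPS versus CTRL DESeq2 called 5, all higher (Amotl2, Ccn2, Cebpd, Errfi1 and Fosl2), and limma-voom 2 (Cebpd and Fosl2). In LPS+DHEA+Nb versus LPS DESeq2 called 2, both lower (Amotl2 and Cebpd), limma-voom 1 (Cebpd), and in the other 4 comparisons both called 0. Over all genes, DESeq2 and limma-voom called 293 and 71 in LPS versus CTRL, and 207 and 47 in LPS+DHEA+Nb versus LPS. In LPS versus CTRL, 45 had a positive log2 fold change (median 0.12), beside 13114 of all 26414 genes (median 0). At an unadjusted p under 0.05 there were 11 higher and none lower, against 7.11% of all genes in either direction. In LPS+DHEA+Nb versus LPS, 50 had a log2 fold change of 0 or less (median -0.17, all genes 0). There 13 were lower and none higher at that p, against 6.56% of all genes in either direction. In LPS+DHEA versus LPS, 3 were lower and 1 higher at that p, against 3.51% of all genes. Cebpd, a leucine zipper factor of acute inflammation, came nearest in LPS versus CTRL, at 3.26 and 3.56 CPM in CTRL and 7.21 and 9.2 in LPS (log2 fold change 1.27, SE 0.22, edgeR adjusted p = 0.0503). It was at 3.82 and 3.03 CPM in LPS+DHEA+Nb (log2 fold change against LPS -1.26, SE 0.22, edgeR adjusted p = 0.0698). Fosl2, a later-acting partner of Jun, was at 2.7 and 3.63 CPM in CTRL and 7.43 and 7.5 in LPS (log2 fold change 1.24, SE 0.22, edgeR adjusted p = 0.0529). Fosl2 was thus above CTRL at nearly the same level in both LPS libraries, unlike Junb. Nr4a3, a relative of Nr4a1, was at 2.09 and 2.38 CPM in LPS+DHEA+Nb and at 3.5 to 4.38 CPM in the other 6 libraries, so that LPS+DHEA+Nb was its lowest group, as for Fosb (log2 fold change against LPS+DHEA -0.8, SE 0.21, edgeR adjusted p = 0.595). Amotl2, a junction protein gene, followed Junb, at 9.48 and 14.9 CPM in LPS and 4.26 and 5.57 in LPS+DHEA+Nb (log2 fold change -1.31, SE 0.28, edgeR adjusted p = 0.195).

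Among 22 AP-1 partners edgeR called none in LPS versus CTRL (1 at an unadjusted p under 0.05, Fosl2, which DESeq2 and limma-voom called) or in LPS+DHEA+Nb versus LPS (4 at that p, all lower, none called by DESeq2 or limma-voom). Of 36 upstream kinases and SRF or CREB factors edgeR, DESeq2 and limma-voom called none. At an unadjusted p under 0.05, 5 were higher and 1 lower in LPS versus CTRL. Over all genes that p was met by 7.11% in LPS versus CTRL and 6.56% in LPS+DHEA+Nb versus LPS. Mapk7, the kinase ERK5, had a log2 fold change of 0.6 (SE 0.15, edgeR adjusted p = 0.21), and Mapk14, the kinase p38 alpha, had 0.53 (SE 0.14, edgeR adjusted p = 0.25). Of 28 genes of transcript decay and feedback, 1 rose in LPS versus CTRL and none fell. This was Socs3, an inhibitor of cytokine signalling, from 1.28 and 0.907 CPM in CTRL to 4.68 and 6.46 CPM in LPS (log2 fold change 2.35, SE 0.31, edgeR adjusted p = 0.00936); without CTRL replicate 2 its adjusted p was 0.074. In LPS+DHEA+Nb versus LPS its log2 fold change was -1.51 (SE 0.29, edgeR adjusted p = 0.115). DESeq2 called 2 genes of the list there, Socs3 and Zfp36l1, both lower, and Socs3 as higher in LPS+DHEA versus CTRL, where edgeR and limma-voom called none.

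The 5 genes nearest to the mean standardised log2 CPM of the 10 members over the 8 libraries, rescaled to unit SD, of 14049 genes compared, were Ddr1, Cacna1a, Sema3g, Lox and Ldhd, with root mean square differences of 0.11, 0.21, 0.24, 0.26 and 0.26 SD units. That mean profile, before rescaling, was 1.15 in LPS replicate 2 and 0.43 in LPS replicate 1, 0.35 and 0.36 under LPS+DHEA, -0.44 and -0.65 in CTRL and -0.69 and -0.5 under LPS+DHEA+Nb. Ddr1, a collagen receptor, stood at 24.7 and 22.5 CPM in CTRL. LPS held it at 34.1 and 41.1 CPM, LPS+DHEA at 33.5 and 32.9 CPM, and LPS+DHEA+Nb at 23.2 and 23.4 CPM. Lox, which crosslinks collagen, stood at 1.26 and 1.06 CPM in CTRL. LPS held it at 4.13 and 8.27 CPM, LPS+DHEA at 2.93 and 3.5 CPM, and LPS+DHEA+Nb at 1.79 and 1.34 CPM. Their agreement with the profile is how they were picked and is no further result.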

How the data were processed

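The data are RNA-seq libraries of mouse testis, 8 in all and 2 for each of 4 groups, grouped by their labels. The authors deposited 1 file per library, whose values are taken as estimated counts for each Ensembl gene without depth scaling. HISAT, featureCounts 1.5.0-p3 and GRCm38 are named, per the submitters' processing notes, without their roles. Per the labels' protocols the library kit was stranded. The values were whole, and no rounding was needed. Symbols were matched for 55154 of 55421 identifiers, with positions from GENCODE M21.

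edgeR 4.0.16 (R 4.3.3) filtered genes with filterByExpr (minimum count 10, minimum total 15), which kept 26414, scaled them by TMM and fitted 1 quasi-likelihood model to the 8 libraries with 4 residual degrees of freedom. Genes were called at a Benjamini-Hochberg adjusted p under 0.05. The SE is the log2 fold change over the square root of F. Alternatives used DESeq2 1.42.0, limma 3.58.1, other scalings and filters, counts divided by 4, 2-group fits, the replicate number as a block and each library left out. Within-group differences use log2 CPM with a prior count of 2, and the window of 0.5 around a gene's level was chosen after seeing the data. The steps were tested on simulated data.

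The members and lists were chosen with earlier results of these data known. Named genes are all members, the called genes of 5 lists (up to 4 a comparison, else the 2 with the smallest p), of which the text uses a part, and the 5 genes of most similar profile with a mean of at least 1 CPM. Promoters come from RefSeq (GRCm38.p6).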

Additional observations from a re-analysis of the deposited data

How the results depend on the processing

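Of 1006 recomputed log2 fold changes of members (60 combinations of member and comparison), 976 kept their direction and their side of the threshold, 24 changed sign and 6 became significant. With DESeq2 the members called were 1 in LPS versus CTRL (Junb), 1 in LPS+DHEA versus CTRL (Atf3), 2 in LPS+DHEA+Nb versus LPS and 2 among the 4 groups (Junb and Egr1 in both). Leaving out 1 library at a time gave 0 to 1 members in LPS versus CTRL, in LPS+DHEA+Nb versus LPS and among the 4 groups, the 1 being Junb without LPS replicate 1, where LPS is 1 library assumed to vary like the other groups. The cause was not tested. The median difference within groups was 0.33 to 0.34 under all settings tried.

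Sign changes on leaving out libraries gave these ranges of log2 fold change. For LPS versus CTRL they were 0 to 0.09 for Dusp1 and -0.3 to 0.06 for Fosb. For LPS+DHEA versus LPS they were -1.94 to 1.97 for Atf3, -0.88 to 0.21 for Egr1, -0.3 to 1.62 for Fos, -0.13 to 0.24 for Ier3 and -1.17 to 0.03 for Junb. For LPS+DHEA+Nb versus LPS it was -0.21 to 1.38 for Atf3. For LPS+DHEA+Nb versus LPS+DHEA they were -1.5 to 2.31 for Atf3 (0.29 with limma-voom) and -0.12 to 0.04 for Jun. For LPS+DHEA versus CTRL they were -0.06 to 0.03 for Dusp1, -0.05 to 0.75 for Egr1, -0.27 to 0.24 for Ier2 and -0.11 to 0.08 for Nr4a1, and with library size alone 0.01 for both Dusp1 and Nr4a1. For LPS+DHEA+Nb versus CTRL they were -1.1 to 7 for Fos (1.82 with limma-voom), -0.33 to 0.18 for Ier2 and -0.17 to 0.02 for Nr4a1.

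With the replicate number as a block no member was called in any comparison (0 in each), and Fos in LPS+DHEA+Nb versus CTRL was at 0.07. The numbers do not show a pairing: deviations of same-numbered libraries correlated at -0.033 to 0.031 across genes. Over all genes, the count of 78 in LPS versus CTRL was 293 with DESeq2 and 140 without a filter, the 45 in LPS+DHEA+Nb versus LPS was 207 and 87, the 23 in LPS+DHEA+Nb versus LPS+DHEA was 116 and 42, the 5 in LPS+DHEA versus LPS was 35 and 10, the 40 in LPS+DHEA versus CTRL was 183 and 80, the 8 in LPS+DHEA+Nb versus CTRL was 76 and 17, and the 63 among the 4 groups was 371 and 155. In fits of 2 groups alone the same comparisons gave 19 for LPS+DHEA+Nb versus LPS, 40 for LPS+DHEA+Nb versus LPS+DHEA, 20 for LPS+DHEA versus LPS and 61 for LPS+DHEA versus CTRL. Leaving out single libraries gave 66 to 118, 43 to 88, 16 to 64, 10 to 24, 27 to 65, 8 to 37 and 65 to 131, in the order first given. Atf3 could not be tested with a filter of 1 CPM or with counts divided by 4, nor in the fits of LPS or LPS+DHEA with CTRL alone. Depth limits Fos and Atf3 most, with at most 79 and 60 counts in a library.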

Other observations

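Among 13 heat shock genes, which immediate stress responses also induce, 1 fell in LPS+DHEA+Nb versus LPS+DHEA and edgeR called none in the other 5 comparisons. In each of those 5, an unadjusted p under 0.05 was met by 1 to 3 of them, beside 3.51% to 7.11% of all genes. In those DESeq2 called Hspb1 in LPS versus CTRL and Hspa8 in LPS+DHEA+Nb versus LPS and versus CTRL, and limma-voom none. Hspa8, the constitutive cytosolic chaperone, stood at 156 and 147 CPM in LPS+DHEA+Nb and at 188 to 210 CPM in the 6 other libraries (log2 fold change against LPS+DHEA -0.45, SE 0.07, edgeR adjusted p = 0.0365). Against LPS the log2 fold change was -0.37 (SE 0.07, edgeR adjusted p = 0.0661). The call ended in the fit of the 2 groups alone (adjusted p = 0.0847) and without each library except LPS replicate 1, at adjusted p-values of 0.051 to 0.213. Hspb1, a small heat shock protein, was at 17.1 and 15.3 CPM in CTRL and 23.2 and 27.5 in LPS (log2 fold change 0.64, SE 0.14, edgeR adjusted p = 0.127).

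Of the genes nearest in profile to the immediate early genes, Ldhd, a mitochondrial lactate dehydrogenase for the D form, stood at 4.55 and 4.42 CPM in CTRL. LPS held it at 10 and 12.2 CPM, LPS+DHEA at 7.62 and 9.03 CPM, and LPS+DHEA+Nb at 4.77 and 3.96 CPM. It was chosen for that profile, so its values are a description. Sema3g, an endothelial semaphorin, stood at 1.84 and 1.91 CPM in CTRL and 3.62 and 4.48 in LPS, and at 1.78 and 1.88 in LPS+DHEA+Nb.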
